A study of Mus musculus with 4 samples.

Results

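Myh6, Myh7, Myl7, Myl2, Myl4, Tnnt2, Tnni1, Actn2, Actc1 and Ttn encode parts of the cardiac sarcomere, the contractile unit of heart muscle. These 10 of the 21824 protein-coding genes of the annotation were chosen by what they encode, with earlier results of these data known. Their chromatin was described by ATAC-seq, in which the transposase Tn5 inserts adaptors into open DNA and a peak marks a stretch with more insertions than its surroundings. A promoter peak is a peak that overlaps the 1000 bp on either side of a transcription start (TSS) of a coding transcript, and a region near a gene is a group of overlapping peaks of the 4 libraries whose strongest summit lies within 50 kb of such a TSS. By this rule 94 of 80380 regions lay near the 10 genes. All coordinates are of the mouse build mm10. The samples were embryoid bodies on day 4 of differentiation, grown from E14Tg2A mouse embryonic stem cells by the hanging-drop method in serum without leukemia inhibitory factor. The genotypes were wild type (WT, 2 libraries) and K20R (2 libraries), in which CRISPR/Cas9 had changed lysine 20 of the chromatin protein CTCF to arginine. Before differentiation the stem cells of both genotypes had been kept on mitomycin C-inactivated mouse embryo fibroblasts. The methods of the study call the 2 libraries of each genotype biological replicates. Whether the K20R libraries came from 1 clone or more was not given in the sources used here.

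In the sarcomere, myosin heavy chains (Myh6, Myh7) with their light chains (Myl2, Myl4, Myl7) form the thick filament and pull on the actin thin filament (Actc1). Troponin (with Tnnt2 and Tnni1 among its subunits) makes that pull depend on calcium, alpha-actinin (Actn2) anchors thin filaments at the Z-disc, and the giant protein titin (Ttn) spans from the Z-disc to the middle of the sarcomere. In the embryo the first cardiomyocytes switch these genes on together, under transcription factors of the GATA, MEF2, NKX2-5, T-box and SRF families, and slow skeletal muscle shares several of them. An embryoid body is a mixture of cell types, so fewer cells with an open site and a less open site in each cell cannot be told apart.

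Peaks numbered 59783 and 66703 in the WT lists, against 51823 and 55832 in the K20R lists, while the share of all protein-coding genes with a promoter peak lay between 67.9% and 68.8% in the 4 lists. Median fold over background at the regions with a peak in all 4 lists was 5.86 and 7.74 in WT, against 5.73 and 7.59 in K20R, so replicate 2 had the higher folds in each genotype. Peaks were therefore compared by percentile of the −log10 p of their summit within their own list, where 100 is the strongest peak. The lists give no read counts, so depth is unknown. With 2 libraries against 2, the smallest p an exact two-sided permutation test can give is 0.333, and no difference between the genotypes could pass a threshold of 0.05. Each list held between 50.5% and 60.8% of its own peak numbers, so called peaks had been taken out, and a region without a deposited peak may have had a called one. Promoters of markers of pluripotency, primitive streak and mesoderm, and neuroectoderm had a peak in all 4 lists (5 of 5 genes for each), as did those of 4 of 5 endoderm genes (Afp had none), 4 of 5 fibroblast genes (Postn had none) and 5 of 5 cardiac transcription factors (Nkx2-5, Gata4, Tbx5, Hand2 and Isl1). Promoters of several lineages thus carried peaks in every library, and Afp and Postn alone among the 30 markers carried none. Percentiles ranked anew among the genes with a promoter peak in all 4 lists were lower in both K20R libraries for 2 and higher for 0 of the 5 cardiac factors, and 1 of the 2, Gata4, lies in a stretch of chromosome 14 that was lower as a whole in K20R and is described with Myh6 and Myh7. They were lower for all 4 endoderm genes with a peak, lower for 3 and higher for 2 of the streak and mesoderm genes, lower for 2 and higher for 0 of the neuroectoderm genes, lower for 1 and higher for 1 of the fibroblast genes, and lower for 0 and higher for 2 of the pluripotency genes (Pou5f1 by 23.5 and Zfp42 by 26.2 points). Of the 2 lower neuroectoderm genes, Pax6 and Otx2, Otx2 lies in the same chromosome 14 stretch as Gata4. The part of such shifts in the values below was not tested.

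Promoter peaks of the sarcomere genes were fewer in the K20R lists. Of the 10 genes, 8 and 10 had one in replicates 1 and 2 of WT, against 5 and 4 in those of K20R. The mean was 9.0 ± 1.41 (SD, n = 2) in WT and 4.50 ± 0.707 in K20R, and the exact two-sided permutation p was 0.333, the smallest possible. The genotypes did not overlap. Myl7, Myl4, Actn2 and Ttn had a promoter peak in all 4 lists. Myl2, Tnni1 and Actc1 had one in both WT lists and in neither K20R list, a pattern found for 0.747% of all protein-coding genes (163 of 21824). None of the 10 showed the reverse pattern at the coding TSSs used, and 0.454% of all genes did. The Tnni1 pattern depended on the TSS. With the start of the gene record alone, Tnni1 had a peak in both K20R lists and in neither WT list. By that setting 7 and 8 of the 10 genes had a promoter peak in WT, against 5 and 4 in K20R. The peaks listed in WT alone were weak, and the count depended on them. With peaks of −log10 q of at least 5 alone, the 4 libraries gave 3, 8, 4 and 4 genes, and the difference of the means shrank from 4.50 to 1.5 with an exact permutation p of 1.00 (n = 2 per genotype).

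**Figure D1:**
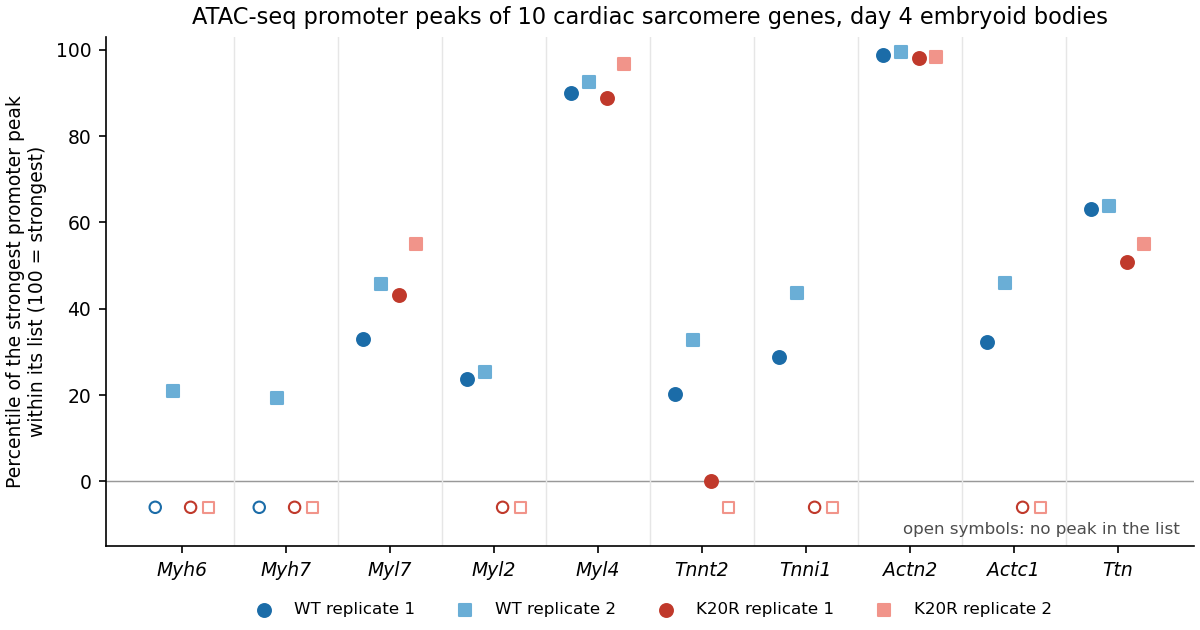
Percentile of the strongest promoter peak of each of the 10 genes within its list (vertical axis, 0 to 100), with 1 point for each of the 2 WT and 2 K20R libraries. Open symbols below 0 mark a list without a promoter peak; Myl2, Tnni1 and Actc1 have filled points for WT alone, and Actn2 stands above 98 in all 4 libraries.

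Actc1, cardiac alpha-actin, is the body of the thin filament. Its promoter peak stood at percentile 32.4 in WT replicate 1 and 45.9 in WT replicate 2 (3.32-fold and 4.36-fold over background), and no K20R list had one. The 2 peaks formed the region chr2:114052441-114053274, whose strongest summit lay 50 bp upstream of the TSS. No peak number was missing around this place in either K20R list, so no called peak had been removed there. A stronger region 4737 bp upstream of the same TSS, chr2:114057190-114058010, in introns of the overlapping transcripts A530058N18Rik and C130080G10Rik, had a peak in all 4 lists. Ranked among the 38527 regions with a peak in all 4 lists (common regions), it stood at percentiles 79.9 and 71.7 in WT, against 21.9 and 18.6 in K20R. Both K20R values lay far below both WT values, the mean difference was -55.6 points, and 206 of the 38527 common regions had a larger drop. Its folds over background were 10.2 and 9.51 in WT, against 4.45 and 5.44 in K20R. The Actc1 locus therefore had a weak promoter peak that was listed in WT alone and a strong upstream peak that was listed in both genotypes and ranked lower in K20R. The next lines show the 200 bases upstream of the Actc1 TSS (chr2:114052888-114053087) and the 201 bases around the summit of the upstream region (chr2:114057524-114057724), both 5′ to 3′ on the strand of the gene. They are shown because they carry the 2 changes at this gene, and capitals mark a CArG box, the site of SRF, in the first and a GATA motif (AGATAA) in the second.
Actc1 promoter: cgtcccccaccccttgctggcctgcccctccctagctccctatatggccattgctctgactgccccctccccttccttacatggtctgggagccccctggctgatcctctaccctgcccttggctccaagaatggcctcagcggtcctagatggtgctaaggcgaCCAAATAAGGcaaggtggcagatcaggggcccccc
Actc1 upstream region: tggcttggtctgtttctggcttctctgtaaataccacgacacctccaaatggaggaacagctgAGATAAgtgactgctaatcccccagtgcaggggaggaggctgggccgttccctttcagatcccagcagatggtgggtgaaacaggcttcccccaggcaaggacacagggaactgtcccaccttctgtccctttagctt
The CArG box ended 25 bases before the end of the promoter window, next to the TSS. Such a box stood in 1.04% of the same windows of all protein-coding genes, and the GATA motif in 7.81% of the same windows of all regions.

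Tnnt2, cardiac troponin T, ties troponin to tropomyosin, and it has 2 groups of annotated starts. Its WT promoter peaks, at percentile 20.3 in replicate 1 and 32.8 in replicate 2, both belonged to the region chr1:135840794-135841392, in an intron 414 bp downstream of an internal TSS, and no peak number was missing there in either K20R list. K20R replicate 1 had its promoter peak elsewhere, 201 bp upstream of the start of the gene, at percentile 0.102 and with a −log10 q of 0.428, and K20R replicate 2 had none. No WT list had a peak within 1000 bp of the first group of starts, where 1 peak number was missing in WT replicate 1, and no K20R list had one at the internal group. A stronger WT-restricted region (a peak in both WT lists and in neither K20R list), chr1:135862070-135862662, lay between genes, 21534 bp downstream, at percentiles 51.6 and 53.0, with 1 peak number missing around it in each K20R list. Not far beyond it, the common region chr1:135865416-135866211, 24900 bp downstream, went the other way. Among common regions it stood at 27.3 and 32.6 in WT, against 61.4 and 56.7 in K20R, a difference of 29.1 points, and 897 common regions had a larger rise. Neighbouring sites downstream of Tnnt2 thus differed between the genotypes in opposite directions.

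Tnni1, slow skeletal troponin I, is the inhibitory troponin subunit of the embryonic heart. Its promoter peak was again listed in WT alone, at percentiles 28.9 and 43.6, in the intronic region chr1:135800463-135800918, 804 bp downstream of the nearest TSS, and 2 peak numbers were missing there in K20R replicate 2. The largest difference of any common region near the 10 genes lay in the same gene. The region chr1:135794293-135795396, 4456 bp upstream of the first coding TSS of the basic annotation and in an intron of the gene record, stood at percentiles 79.0 and 85.9 among common regions in WT, against 4.84 and 3.81 in K20R. The mean difference was -78.1 points, far beyond the gap between replicates, and 13 of the 38527 common regions had a larger one. The folds were 8.03 and 10.3 in WT, against 2.59 and 2.85 in K20R. The 201 bases around its summit (chr1:135794846-135795046, plus strand) are shown because no other common region near the 10 genes differed as much, and none of the 7 motifs searched was found in them.
Tnni1 upstream region: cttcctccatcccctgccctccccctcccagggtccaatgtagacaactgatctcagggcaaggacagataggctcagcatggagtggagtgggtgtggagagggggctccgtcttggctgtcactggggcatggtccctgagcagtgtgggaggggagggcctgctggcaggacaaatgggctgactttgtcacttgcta
Just upstream of it, the region chr1:135793320-135793894, singled out after its values were seen, had no peak in WT replicate 1 and percentile 15.1 within the list of WT replicate 2, against 55.4 and 45.6 in K20R. Further upstream, 2 K20R-restricted regions (a peak in both K20R lists and in neither WT list) lay 11394 bp and 19996 bp from the first coding TSS. The nearer, chr1:135787705-135788274, stood at percentiles 29.6 and 40.9, with no peak number missing in either WT list. The farther, chr1:135778853-135779612, at 22.1 and 25.4, contained the start of the Tnni1 gene record at 135779434, where a transcript outside the basic set begins. With that start alone as the promoter, the Tnni1 peak was listed in K20R and not in WT. There 1 and 2 peak numbers were missing in the WT lists, so a called WT peak may have been removed.

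Myl2, the ventricular regulatory light chain, had the last of the promoter peaks listed in WT alone. Its region chr5:122100854-122101479 covered the TSS, its strongest summit lay 2 bp from one, and its percentiles were 23.7 and 25.4. In K20R replicate 1, 2 peak numbers were missing there, so a called peak may have been removed, and in K20R replicate 2 none was. The promoter is shown (chr5:122100751-122100950, plus strand, the 200 bases upstream of the first TSS) because its peak followed genotype, with the MEF2 consensus in capitals.
Myl2 promoter: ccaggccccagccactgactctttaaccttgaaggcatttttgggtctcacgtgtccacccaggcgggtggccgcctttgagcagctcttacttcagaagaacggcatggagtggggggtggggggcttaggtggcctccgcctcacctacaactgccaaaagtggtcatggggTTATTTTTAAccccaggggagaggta
The MEF2 consensus, an AT-rich word that can overlap a TATA box, ended 16 bases before the end of this window, and 2.00% of the windows of all protein-coding genes held one. Away from the promoter the Myl2 locus did not follow it. With 21 regions it was the richest of the 10 loci, and its 3 K20R-restricted regions, chr5:122062341-122062959, chr5:122079687-122080158 and chr5:122116225-122116669, stood at percentiles between 2.17 and 31.3. Around each of the first 2, 1 peak number was missing in each WT list, and around the third 1 was missing in WT replicate 1 alone. A called WT peak may thus have been removed at each. Of its 9 common regions 2 were lower and 4 higher in both K20R libraries. The regions with a peak numbered 14 and 12 in the WT lists and 17 and 16 in the K20R lists, so the Myl2 surroundings held more listed regions in K20R while its promoter peak was listed in WT.

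Myl4 and Myl7, the atrial light chains, kept their promoter peaks in all 4 libraries. At the first TSS of Myl4 the peak was strong, at percentiles 90.0 and 92.6 in WT, against 88.8 and 96.7 in K20R, and the genotypes overlapped. The internal start of Myl4 had a weak WT-restricted region instead, chr11:104576914-104577668, at percentiles 6.36 and 10.5 (−log10 q of 1.39 and 2.75), and a further one lay in an intron at chr11:104582718-104583416, at 19.4 and 10.5. No peak number was missing at either place in the K20R lists. Between the 2 starts of Myl4, the intronic common region chr11:104571244-104572830, 5357 bp upstream of the internal TSS, was higher in K20R. It stood at 10.1 and 3.38 in WT, against 55.1 and 25.7 in K20R, a mean difference of 33.7 points, and 535 common regions had a larger rise. Its K20R replicates lay far apart, and the lower one was still above both WT values. The Myl7 peak overlapped the promoter window from inside the gene, with summits 765 and 1684 bp downstream of the TSS in WT and 1558 and 1257 bp in K20R. Its percentiles were 33.1 and 45.7 in WT, against 43.1 and 55.1 in K20R within their lists, which overlapped. Among common regions its region stood at 14.9 and 21.5 in WT, against 27.8 and 37.2 in K20R, so by that ranking K20R was higher. A WT-restricted region lay 5746 bp downstream of the Myl7 TSS, at chr11:5892491-5893246 (18.7 and 31.7), and the gene also had 1 K20R-restricted region.

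Actn2, the sarcomeric alpha-actinin, had the strongest promoter peak of the 10, at percentiles 98.7 and 99.5 in WT, against 98.1 and 98.4 in K20R. Both K20R values were below both WT values, by under 2 points. The gene had 1 WT-restricted region 28642 bp upstream, chr13:12369178-12369983 (21.6 and 28.6), and 1 K20R-restricted region in an intron, chr13:12322938-12323675 (4.66 and 16.2). Around the first, 0 and 1 peak numbers were missing in the K20R lists. Around the second, 3 and 2 were missing in the WT lists, so a called WT peak may have been removed. Ttn had its strongest promoter peak not at its first TSS but at an internal one, in the region chr2:76980078-76980662. The percentiles there were 63.0 and 63.7 in WT, against 50.8 and 55.0 in K20R, so by percentile the genotypes did not overlap. The folds did overlap, at 6.67 and 8.30 in WT, against 5.73 and 8.47 in K20R. Upstream of the first Ttn TSS, by 1251 bp, lay a WT-restricted region, chr2:76983348-76983941 (48.4 and 47.1), with 2 and 1 peak numbers missing in the K20R lists. Far inside the gene, 2 intronic regions singled out after their values were seen, chr2:76805098-76805828 and chr2:76806255-76807187, had no peak in WT replicate 1. Their percentiles in WT replicate 2 were 21.0 and 17.5, against 65.5 and 67.3 for the first and 36.2 and 33.7 for the second in K20R, and 2 peak numbers were missing at each of them in WT replicate 1. Nearer the start, the intronic common region chr2:76968586-76969959 overlapped between the genotypes (28.3 and 51.6 among common regions in WT, against 47.2 and 45.2 in K20R), and chr2:76970756-76970954 had a weak peak in WT replicate 2 alone. The intronic regions of Ttn thus shared no direction.

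Among the 4 genes with a promoter peak in all 4 lists, 2 (Actn2 and Ttn) were lower in both K20R libraries and 0 were higher by percentile among all peaks. Over the 14475 genes with such a peak, 32.2% were lower and 15.7% higher by this measure, and a count of 2 of 4 is not read as particular to these genes. The K20R lists were shorter, which shifts percentiles among all peaks. Ranked anew among the 14475 genes, 2 were lower (Actn2 and Ttn) and 1 higher (Myl7, with 1.87 and 3.45 in WT, against 3.82 and 6.30 in K20R), beside 23.0% lower and 23.8% higher over all these genes. Without K20R replicate 2, Myl4 and Tnnt2, which has no peak in that list, were lower as well by percentile among all peaks, and Myl7 overlapped. With the start of the gene record alone or with ranks by fold, 1 gene was lower.

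The thick filament heavy chains were judged apart, because Myh6 and Myh7 lie side by side on chromosome 14 in a stretch, from 44988432 to 66176004, that earlier results of these data had shown to be lowered as a whole in K20R. Of the 327 common regions in the stretch 78.3% were lower in both K20R libraries and 2.75% higher, with a median difference of -16.0 points, against 25.0% and 29.4% and a median of 0.685 in the rest of the genome. Each promoter had a peak in WT replicate 2 alone, at percentile 21.0 for Myh6 (alpha-myosin heavy chain, the main form of the adult mouse ventricle) and 19.4 for Myh7 (beta-myosin heavy chain, the main form of the fetal ventricle). Of the 5 common regions near the pair, 4 were lower in K20R with differences of -21.4, -27.0, -18.1 and -17.1 points. That is -5.44, -11.0, -2.16 and -1.17 points relative to the median of the stretch, and with the stretch so low their difference cannot be told apart from it. A summit of these 4 lay within 1000 bp of the TSS of Efs in one case and of Ngdn in another, genes that are not part of the sarcomere. The largest of the 4, chr14:54939337-54939928, had percentiles of 72.2 and 70.1 in WT, against 40.9 and 47.4 in K20R, and it was the third largest drop near the 10 genes. The only WT-restricted region of the pair, chr14:55027156-55027979, lay 32691 bp upstream of Myh7 (44.4 and 28.2), with 1 peak number missing in each K20R list.

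The fifth region went against the stretch. In an intron of Myh6, 9817 bp downstream of the TSS, chr14:54956481-54957277 stood among common regions at 10.1 and 6.06 in WT, against 43.1 and 33.7 in K20R. The difference of 30.3 points was the highest of all 327 common regions of the stretch and lay 46.3 points above their median. Both K20R values exceeded both WT values, with folds of 3.72 and 4.31 in WT, against 6.45 and 7.98 in K20R. In all, 9 common regions of the stretch were higher in both K20R libraries. The sequence of the Myh6 region (chr14:54956688-54956888, on the minus strand, which is that of the gene) is shown because its rise was the largest of the stretch. Capitals mark a TEAD motif (GGAATG), a word found in 12.0% of the same windows of all regions.
Myh6 intronic region: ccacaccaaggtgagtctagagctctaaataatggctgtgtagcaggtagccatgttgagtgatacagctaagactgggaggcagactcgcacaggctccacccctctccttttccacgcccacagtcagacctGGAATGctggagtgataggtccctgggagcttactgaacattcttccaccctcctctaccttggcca

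**Figure D2:**
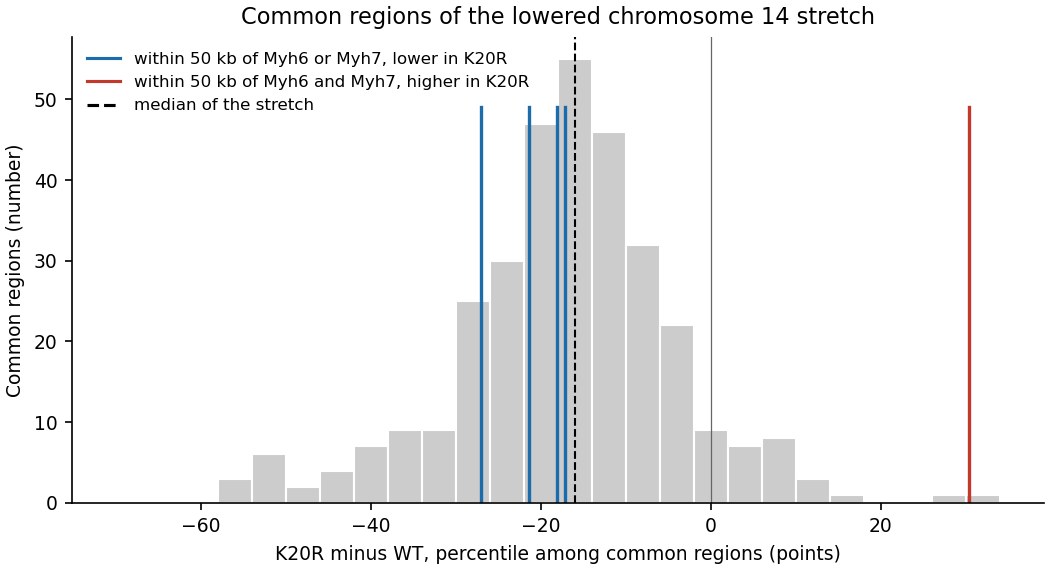
Distribution of the difference K20R minus WT (horizontal axis, points of percentile among common regions) over the 327 common regions of the chromosome 14 stretch (vertical axis, number of regions). The 4 blue lines near Myh6 or Myh7 fall close to the dashed median of -16.0, and the red line of the Myh6 intron, at 30.3, stands at the right end.

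Counted over the 10 loci, 94 regions had a peak in at least 1 list. They numbered 66 and 72 in the WT lists and 62 and 63 in the K20R lists (69.0 ± 4.24 against 62.5 ± 0.707, SD, n = 2; exact two-sided permutation p = 0.333). WT-restricted regions were 11 of the 94, or 11.7%, and over all 80380 regions 10.4% were WT-restricted, so their share was near that of the genome. K20R-restricted regions were 7, or 7.45%, beside 3.10% of all regions. Within 10 kb of a TSS of the 10 genes 8 of 36 regions were WT-restricted and 0 were K20R-restricted. Of these 8, the region upstream of Ttn alone had both WT peaks at a −log10 q of at least 5 (8.44 and 13.3). Over all regions within 10 kb of a protein-coding TSS, 6.35% were WT-restricted and 2.16% K20R-restricted. A count of 0 among 36 regions is near the second share and is not read as particular to these genes. The K20R-restricted region at the start of the Tnni1 gene record is outside this count, since it lay 19996 bp from the first coding TSS. A WT-restricted region touched the promoter window of 6 of the 10 genes (Myl2, Myl4, Tnnt2, Tnni1, Actc1 and Ttn), which was so for 1.54% of all protein-coding genes, and a K20R-restricted region touched the window of 0, beside 0.747% of all genes. Restricted regions were mostly weak, with percentiles between 6.36 and 53.0 for WT and between 2.17 and 40.9 for K20R. No peak number was missing in both lists of the other genotype at 5 of the 11 WT-restricted and 1 of the 7 K20R-restricted regions. With the same number of peaks taken from each list the counts were 9 WT-restricted and 10 K20R-restricted, and with a −log10 q of at least 5 they were 4 and 4, so which genotype had more depended on list length and peak strength. Without WT replicate 1 the WT-restricted count was 19 and without WT replicate 2 it was 17, and the K20R-restricted count was 11 without WT replicate 2 or without K20R replicate 2. The windows of Tnnt2 and Tnni1 overlap, as do those of Myh6 and Myh7, and a region in 2 windows was counted 1 time.

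**Figure D3:**
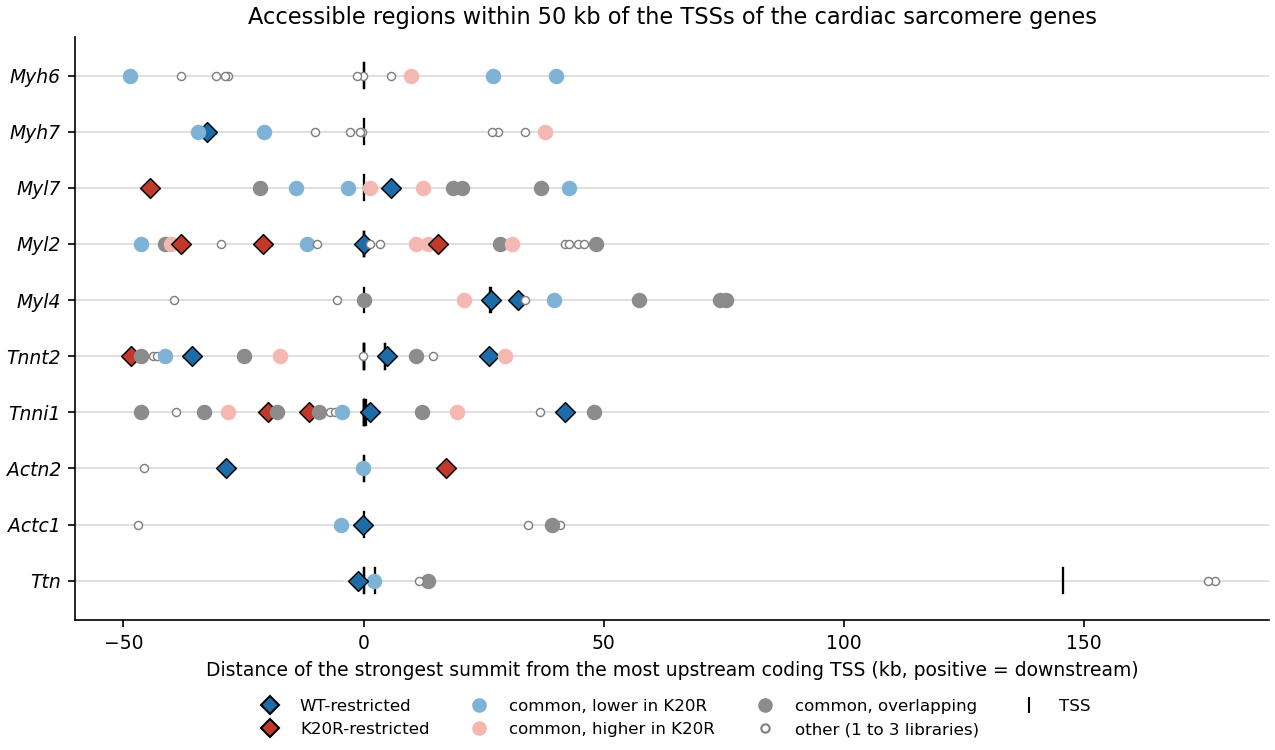
Regions near each gene by the distance of their strongest summit from the most upstream coding TSS (horizontal axis in kb, downstream positive; black ticks are TSSs). Of the 11 WT-restricted regions (blue diamonds) 8 lie within 10 kb of a coding TSS, and the 7 K20R-restricted regions (red diamonds) lie at least 11.4 kb from one; a region near 2 genes is drawn in both rows.

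The 44 common regions near the 10 genes showed no shared direction. Of them 14 were lower and 11 higher in both K20R libraries and 19 overlapped, and over all 38527 common regions 25.5% were lower and 29.2% higher. The median difference was 0.390 points near the 10 genes and 0.606 over all, and 1.76 over the 39 common regions left without chromosome 14. The 3 largest drops were those described near Tnni1, Actc1 and Myh6, and the 3 largest rises those near Myl4, Myh6 and Tnnt2. Of the 8 regions with a peak in 3 of the 4 lists 5 lacked a WT peak and 3 lacked a K20R peak, and over all 9175 such regions 42.1% lacked a WT peak. Of all 94 summits 46 lay in introns, 42 between genes, 5 in UTR exons and 1 in a coding exon. In 8 cases a gene outside the sarcomere had its TSS within 1000 bp of the summit (Lad1, Phlda3, Aebp1, Pold2, Itgb3, Gjd2, Efs and Ngdn). At those of Phlda3, Aebp1, Pold2, Itgb3 and Gjd2 the genotypes overlapped, at Lad1 K20R was higher, and at Efs and Ngdn, in the chromosome 14 stretch, it was lower.

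**Figure D4:**
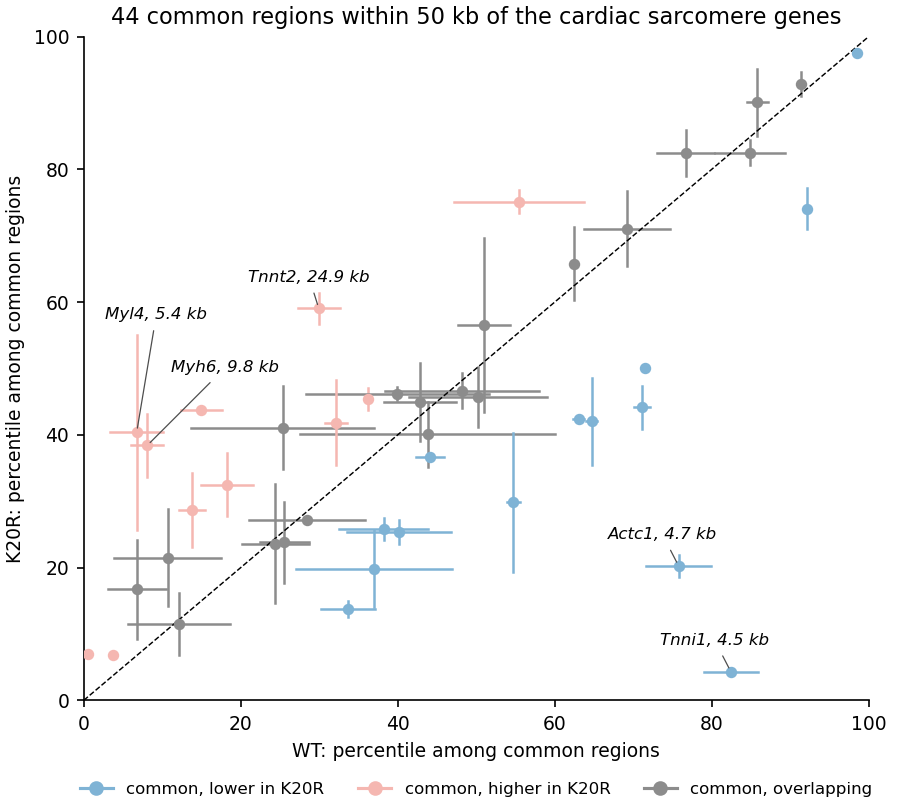
Mean percentile among common regions in WT (horizontal axis) and K20R (vertical axis) for the 44 common regions, with lines from the lower to the higher replicate in each direction and a dashed line of equality. The Tnni1 region at 4.5 kb and the Actc1 region at 4.7 kb lie far below the line, and the labelled Myl4, Myh6 and Tnnt2 regions above it.

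CTCF carries the mutation, and its consensus was found around the summit of 9 of the 94 regions (9.57%, beside 5.97% of all regions). It was in 0 of the 11 WT-restricted regions (beside 2.58% of all WT-restricted regions), 1 of the 7 K20R-restricted regions, 2 of the 14 lower and 2 of the 11 higher common regions. The lower ones were the Ttn internal promoter and chr11:104589976-104590676 in an intron of Myl4, and the higher ones were chr11:5885949-5887239 downstream of Myl7 and chr5:122114042-122114830 downstream of the Myl2 TSS. The Ttn and Myl2 regions held the same 12 letters in the same orientation to their gene and differed between the genotypes in opposite directions. The Ttn region had percentiles among common regions of 45.9 and 42.3 in WT, against 36.2 and 37.0 in K20R, and the Myl2 region, in an intron of Ccdc63 and 13473 bp from the TSS, had 17.6 and 12.4 in WT, against 43.9 and 43.7 in K20R. Both are printed for that contrast, on the strand of the gene named (Ttn chr2:76980288-76980488, minus strand; Myl2 chr5:122114356-122114556, plus strand), with the CTCF consensus and the TEAD motif in either orientation (GGAATG, or CATTCC on the other strand) in capitals. In the Ttn window the last letter of the CTCF match is the first of the TEAD match.
Ttn internal promoter region: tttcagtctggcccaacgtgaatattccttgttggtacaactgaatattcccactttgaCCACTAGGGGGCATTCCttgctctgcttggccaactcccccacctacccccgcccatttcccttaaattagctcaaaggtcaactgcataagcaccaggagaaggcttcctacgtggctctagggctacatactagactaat
Myl2 downstream region: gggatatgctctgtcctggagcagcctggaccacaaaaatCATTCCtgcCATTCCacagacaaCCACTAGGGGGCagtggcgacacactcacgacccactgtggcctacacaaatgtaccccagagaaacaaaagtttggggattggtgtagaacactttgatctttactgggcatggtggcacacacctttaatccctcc
Of the motifs of cardiac factors, the MEF2 consensus was in 2, the CArG box in 1 and the GATA motif in 2 of the 11 WT-restricted regions, beside 1.46%, 1.31% and 14.5% of all 8341 WT-restricted regions of the genome and 1.21%, 0.984% and 7.81% of all regions. Matches to TEAD, NKX2-5 (TNAAGTG) and T-box (TCACACC) were in 0, beside 13.9%, 11.7% and 7.54% of all WT-restricted regions. With 11 regions such counts are too small to set these regions apart from the class. These letters describe the sequence, and none shows that a factor was bound.

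The promoters that had a peak in WT alone were poor in CpG. Within 500 bp of the TSS the observed over expected CpG ratio was 0.139 for the first TSS of Myl2, 0.225 for Actc1 and between 0.107 and 0.142 for the starts of Tnni1. The first TSS of Myl4 (0.729) and that of Actn2 (0.515), with the strongest promoter peaks, stood higher. Medians were 0.552 over all protein-coding genes, 0.705 over genes with a promoter peak in all 4 lists, and 0.206 over the genes with a peak in both WT lists and no K20R list. Low CpG was therefore shared by the other genes of that pattern. It did not mark the pattern by itself, since Myl7 (0.219) had a peak in all 4 lists.

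The relatives of the 10 genes were read in the same way, from lists chosen for function, with earlier results of these data known. Of 26 partners in the sarcomere and its calcium handling, 16 and 15 had a promoter peak in the WT lists and 14 and 16 in the K20R lists, so their counts overlapped. None of the 26 had a peak in both WT lists and in neither K20R list, and Ldb3, Ankrd1 and Pln, named after their values were seen, had one in a single WT list and no other. The 12 with a peak in all 4 lists split after ranking anew into 5 lower, 1 higher and the rest overlapping. The lower ones with the largest differences were Flnc, a filamin that links actin to the Z-disc (73.4 and 41.5 in WT, against 12.2 and 13.6 in K20R), Myom1, a crosslinker of the M-band (44.3 and 39.0 against 2.37 and 0.218), and Myocd, the cardiac and smooth muscle coactivator of SRF (72.4 and 69.5 against 46.0 and 43.4). Cryab, a chaperone of the Z-disc, was higher by 1.36 points. Mybpc3, Myom2, Csrp3, Mypn, Myoz2, Lmod2 and Xirp1 had no promoter peak in any list. Of 16 skeletal muscle relatives, 6 and 6 had a promoter peak in WT, against 4 and 6 in K20R, and 9 had none in any list. Mylpf (fast regulatory light chain) was lower by 10.1 points and Tnnt1 (slow troponin T) higher by 3.72 points in K20R. Acta1, skeletal alpha-actin, named after its values were seen, was the single one with a peak in both WT lists and no K20R list (8.86 and 13.1 within the lists). Of 14 cytoskeletal relatives, 13 had a promoter peak in all 4 lists, with 6 lower and 3 higher. Myh9, Myl9 and Actn1, the nonmuscle and smooth muscle counterparts of the heavy chain, light chain and alpha-actinin, were lower by 11.5, 10.3 and 10.1 points, and Actb, Myl6 and Tpm4 higher by 49.5, 27.0 and 13.2 points. The shares over all genes are the 23.0% and 23.8% given above.

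**Figure D5:**
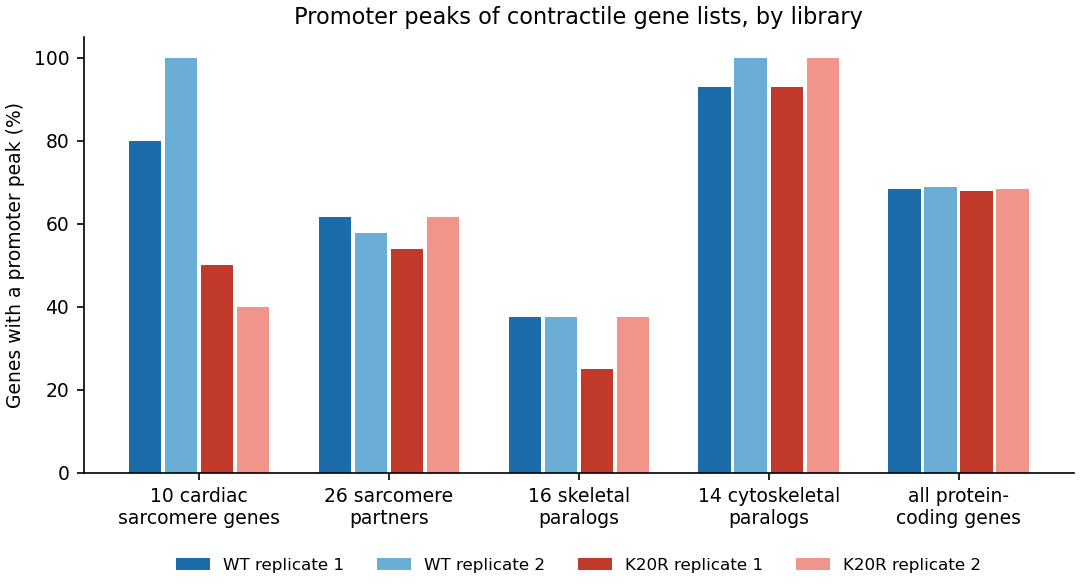
Share of genes with a promoter peak (vertical axis, %) in each of the 4 libraries for the 10 cardiac sarcomere genes, 3 lists of relatives and all protein-coding genes. The 10 genes stand at 80.0% and 100% in WT and drop to 50.0% and 40.0% in K20R, while the bars of all protein-coding genes stay between 67.9% and 68.8%.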

How the data were processed

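ATAC-seq peak lists of day 4 embryoid bodies, 2 WT and 2 K20R, were used, with genotype and replicate number from the labels. Per the labels and the methods of the study, the authors trimmed reads with Trim Galore, aligned them to mm10 with Bowtie2, removed low-quality, duplicate and blacklisted reads, and called peaks with MACS2 in each library. The deposited score is the −log10 p times 10, the deposited ratio is the fold of the summit over its local background, and the deposited −log10 p and −log10 q belong to the summit. The weakest listed peaks had a p of about 0.01, and between 2.18% and 5.05% of the peaks had a q above 0.05. Depth is unknown, and a differential test on reads could not be run.

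Here, peaks sharing at least 1 bp were merged across lists, and TSSs were those of all protein-coding transcripts of the GENCODE vM21 basic annotation. A gene or region was lower (or higher) where both K20R percentiles lay below (or above) both WT percentiles. Counts per library were compared by exact two-sided permutation tests. Motifs were searched on both strands within 100 bp of the summit and 200 bp upstream of TSSs. Named were all 10 genes, all restricted regions near them but 1, the 3 common regions with the largest difference in each direction, and from each other list at most 3 genes in each direction. The genes and lists were chosen with earlier results of these data known. Scripts used Python 3.11.15, pandas 2.3.3, scipy 1.17.1 and samtools 1.23.1, and were checked on simulated peak lists. The alternatives were other windows, distances, overlaps, rankings and peak minima, the replicate block and the omission of each library. The position and values of that region, K20R-restricted and near Myl7, are not reported here.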

Additional observations from a re-analysis of the deposited data

How the results depend on the processing

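The WT minus K20R difference in the mean number of genes with a promoter peak was positive under every alternative run. With a −log10 q of at least 5 it was 1.5, but the genotypes overlapped (3 and 8 genes in WT, against 4 and 4 in K20R). It lay between 3.00 and 5.00 under the other settings on all 4 libraries, and between 3.5 and 5.50 with a library left out. Of the promoter percentiles, 2 were lower and 0 higher in K20R; 1 was lower with the start of the gene record alone, 1 lower and 1 higher by fold, 1 higher ranked anew among genes, and 2 to 4 lower and 0 to 2 higher with a library left out. WT-restricted regions (11) numbered 17 within 100 kb, 4 with the q minimum, 5 where no peak number was missing, and 12 to 19 with a library left out. K20R-restricted regions (7) numbered 0 within 10 kb, 4 at 50% overlap, 4 with the q minimum, 1 where no number was missing, and 8 to 11 with a library left out; with the same number of peaks from each list the counts were 9 and 10. Common regions lower in K20R (14) numbered 5 within 10 kb and 15 to 19 with a library left out, and those higher (11) numbered 3 within 10 kb, 18 within 100 kb, 5 with the q minimum, 6 by percentile among all peaks, and 17 to 19 with a library left out. The causes were not tested, beyond fewer or more regions by construction at other distances, q minima and library numbers. The labels do not say whether replicate numbers pair the libraries. The r of replicate 1 minus replicate 2 between the genotypes was 0.0407 across 38527 common regions, and with 2 pairs it cannot decide this. With the replicate block, 1 promoter was higher, and the other counts were 2, 11, 7, 14 and 13. The alternative of a summit within 1000 bp was chosen after seeing the data.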
